A study of Mus musculus with 15 samples.

Results

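Chaperone-mediated autophagy (CMA) moves single cytosolic proteins, 1 at a time, across the lysosomal membrane. The transcripts described here are its 8 core genes: the lysosomal receptor Lamp2 and its membrane companion Lamp1, the chaperone Hspa8 with its co-chaperones St13 and Stub1, and the regulators Snx10, Ctsa and Rara. They were chosen by name for their known roles, but with earlier results of these data known. All 8 were found among the 24030 gene symbols of the table. All 8 also passed the filter on low counts, which kept 15083 genes.

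The tissue was brown fat, a heat-producing organ rich in mitochondria and lipid, and it was sequenced in bulk in 15 mouse libraries. The groups are called KO, for mice with the gene for DJ-1 (Park7) knocked out in brown fat, and WT, for flox mice without the knockout. Both genotypes had been kept for 8 weeks at room temperature, which is cool for a mouse, or at 29 °C, close to the temperature at which a mouse needs little extra heat. There were 4 WT and 4 KO libraries at room temperature, and 4 WT and 3 KO libraries at 29 °C. The driver of the knockout and the age and sex of the mice are not given in the sources used here, nor whether libraries came from separate animals. The p-values therefore cover only the variation among these libraries, which may be technical.

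In CMA, HSC70 (the product of Hspa8) binds a short motif in a substrate protein and carries it to the lysosome. There it docks on LAMP2A, a splice form of LAMP2, which assembles into a complex through which the unfolded substrate enters the lumen. The amount of LAMP2A at the membrane is usually the limiting step, and it is set both by transcription and by how fast LAMP2A is cleaved and degraded. The title of the series concerns CMA activity in this knockout. Transcript levels are not a measure of that activity, and only transcript levels were analysed here.

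Lamp2 lies on the minus strand of chromosome X at 38401357 to 38456454 (GRCm38/mm10, GENCODE M21). Its 3 coding transcripts share their first 8 coding exons and end in different last exons, which encode the membrane-spanning stretch and the short cytosolic tail that in LAMP2A binds substrate and chaperone. The coding parts of these last exons are shown because the deposited table has 1 value per gene, so that the CMA receptor form A cannot be told from forms B and C in any value below. They lie at chrX:38405435-38405571 (A), chrX:38402142-38402281 (B) and chrX:38421715-38421851 (C), and capitals mark the last 10 codons before the stop codon.
Lamp2A: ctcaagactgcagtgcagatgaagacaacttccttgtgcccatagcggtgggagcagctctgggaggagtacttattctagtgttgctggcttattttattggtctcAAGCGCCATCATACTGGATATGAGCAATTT
Lamp2B: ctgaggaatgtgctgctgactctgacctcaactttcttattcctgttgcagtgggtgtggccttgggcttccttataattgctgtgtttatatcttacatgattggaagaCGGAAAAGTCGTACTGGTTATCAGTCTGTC
Lamp2C: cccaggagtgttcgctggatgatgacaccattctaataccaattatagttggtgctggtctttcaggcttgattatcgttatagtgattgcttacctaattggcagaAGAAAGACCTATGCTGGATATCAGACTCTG
The capitals of form A encode 4 lysine, arginine or histidine residues, those of form B 3 and those of form C 2. The codon just before the capitals encodes arginine (aga) in forms B and C and leucine (ctc) in form A. These counts therefore depend on where the marked stretch begins, and they do not set form A apart from form B.

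The genotype labels were checked with Park7, which in KO was at 25.6% of the WT level at room temperature (28.2 ± 4.03 against 110 ± 1.66 CPM, read counts scaled to a common library total, SD, n = 4 and 4; exact permutation test, two-sided, p = 0.0286). At 29 °C it was at 26.8% (31.7 ± 5.46 against 118 ± 11 CPM, n = 3 and 4; exact permutation test, two-sided, p = 0.0286). Both are the smallest p that 70 and 35 arrangements allow. Library totals were 23977448 to 26789246 estimated counts in 14 libraries and 38800967 in KO at 29 °C replicate 1. Ucp1, which encodes the heat-making uncoupling protein of brown adipocytes, reached 4777.9 to 9992.5 CPM in every group except WT at 29 °C, where it was at 839 to 1276.6 CPM, so the labelled tissue carried its defining marker in all 15 libraries. Transcripts of the 13 mitochondrially encoded proteins made up 30.2% to 41.6% of each library in WT at 29 °C and 22.7% to 27.4% elsewhere. Markers of skeletal muscle reached 0.151% of counts in WT at 29 °C replicate 2 and 0.057% and 0.178% in KO at 29 °C replicates 2 and 3. KO replicates 2 and 4 at room temperature stood apart by a low sum of brown adipocyte markers, which includes Ucp1, at 4953.0 and 4777.9 CPM. Results are therefore also given without these libraries where that changed them.

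Of the 8 CMA genes, 6 differed between KO and WT at 29 °C: Lamp2, Lamp1, St13 and Snx10 were higher in KO, and Hspa8 and Stub1 were lower (edgeR's quasi-likelihood test, Benjamini-Hochberg adjusted p under 0.05 over all 15083 genes). At 29 °C such a call was made for 44.7% of all genes tested, with 24.7% higher and 20% lower in KO, so that a call by itself does not set the 8 genes apart. At room temperature none of the 8 was called, where 0.239% of all genes tested were. An unadjusted edgeR p under 0.05 was found there for 1 of the 8 and for 1678 of the 15083 genes tested. DESeq2 called 0 of the 8 there and 228 genes in all. In WT, 7 of the 8 differed between 29 °C and room temperature (4 lower and 3 higher at 29 °C), against a background of 68.8% of genes, 36.0% higher and 32.8% lower. In KO, 2 of the 8 differed between the temperatures, against 46.0%. The interaction, the difference between the KO and WT responses to housing, was called for 6 of the 8, against 28.3% of genes (16.0% above 0 and 12.3% below). The median log2 fold change of the 8 genes in KO against WT at 29 °C was 0.38, and that of all genes tested was 0.04. KO against WT at 29 °C and the housing response in WT share the 4 WT libraries at 29 °C, so their opposite signs are not independent of each other. Where groups are said below not to overlap, or to hold the lowest or highest libraries, the share of all genes that separate likewise was not counted. In bulk tissue, fewer cells of a type and less RNA per cell cannot be told apart, which applies to every value here.

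**Figure D1:**
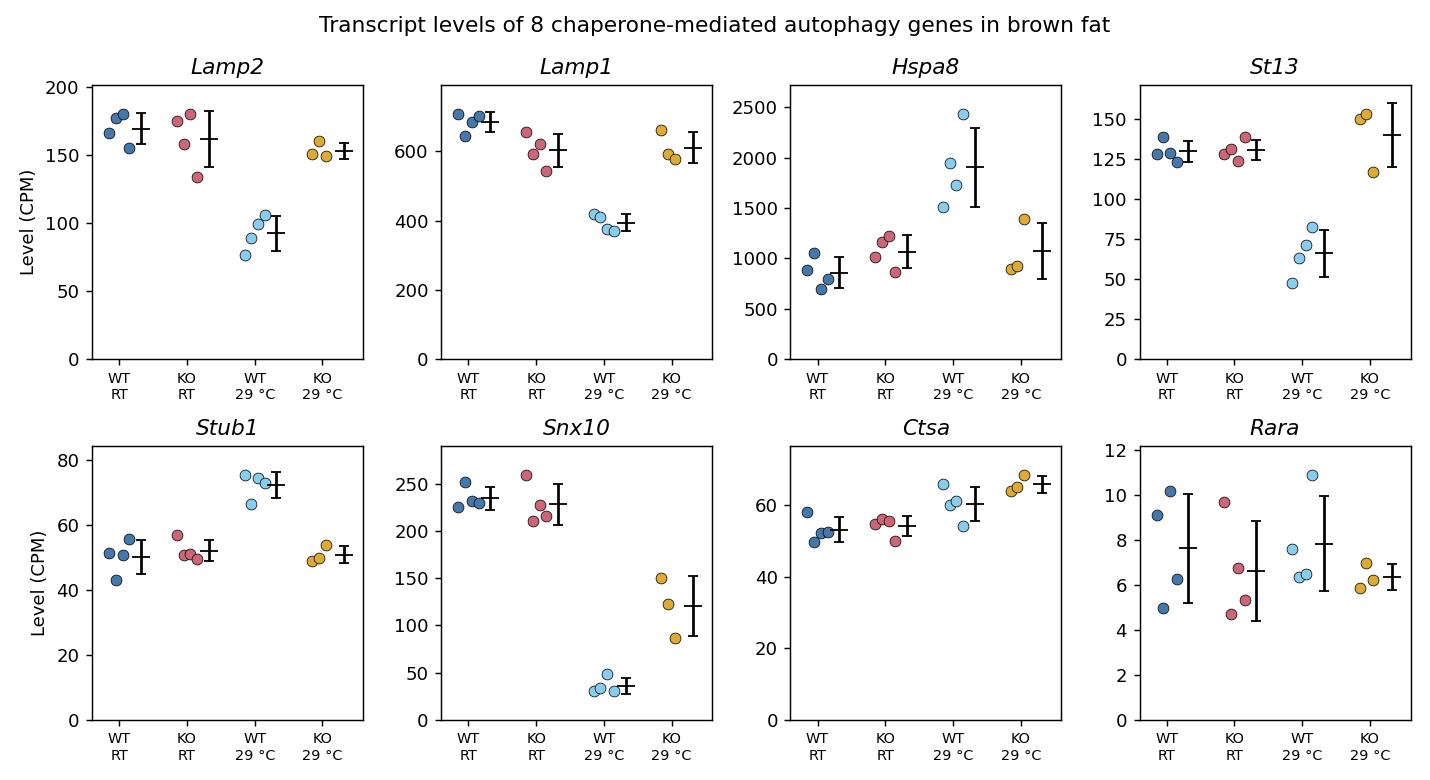
Level in CPM of the 8 CMA genes in each of the 15 libraries, with 1 point per library and, to the right of each group, the mean and SD (n = 4, 4, 4 and 3). For Lamp2, Lamp1, St13 and Snx10 the points of WT at 29 °C lie below all others, and for Hspa8 and Stub1 they lie above all others. The share of all genes that separate in this way was not counted.

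Lamp2 was at 166, 177, 180 and 155 CPM in WT at room temperature and at 175, 158, 180 and 134 CPM in KO at room temperature. At 29 °C it was at 76.4, 88.8, 99.2 and 106 CPM in WT and at 151, 160 and 149 CPM in KO. The 4 WT libraries at 29 °C were thus the 4 lowest, and the KO libraries at 29 °C fell within the range of the room temperature libraries. KO was 1.65-fold higher than WT at 29 °C (log2 fold change 0.73 ± 0.12 SE, edgeR adjusted p = 1.2e-04), with no overlap. In WT, Lamp2 fell by 0.87 on the log2 scale from room temperature to 29 °C (adjusted p = 2.9e-06), while in KO the difference was -0.08 (95% interval -0.32 to 0.17, adjusted p = 0.618). The housing responses differed by 0.80 (interaction, adjusted p = 0.00173). At room temperature KO and WT differed by -0.07 (95% interval -0.30 to 0.16). From highest to lowest the group means ran WT at room temperature (170 ± 11.4 CPM), KO at room temperature (162 ± 20.6), KO at 29 °C (153 ± 6.26) and WT at 29 °C (92.7 ± 13), and only the last step was called.

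Lamp1 encodes the most abundant lysosomal membrane glycoprotein, a close relative of LAMP2 that does not act as the CMA receptor, and lies on the plus strand of chromosome 8 at 13159161 to 13175338. It was at 707, 643, 686 and 703 CPM in WT and 657, 592, 621 and 544 CPM in KO at room temperature. At 29 °C it was at 420, 409, 376 and 369 CPM in WT and at 662, 593 and 577 CPM in KO. As for Lamp2, WT at 29 °C held the 4 lowest libraries with no overlap. KO was 1.55-fold higher than WT at 29 °C (log2 fold change 0.63 ± 0.09, adjusted p = 4.2e-05), and the housing responses differed by 0.82 (adjusted p = 2.1e-04). Lamp1 was the only one of the 8 with an unadjusted p under 0.05 at room temperature, where KO was at 88.1% of WT (log2 fold change -0.18 ± 0.08, unadjusted p = 0.044, edgeR adjusted p = 0.436). The ratio of Lamp1 to Lamp2 counts moved little: its median was 4.04 in WT and 3.76 in KO at room temperature, and 4.20 in WT and 3.88 in KO at 29 °C.

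Lamp1 and Lamp2 changed in the same direction in each called comparison. The sequences before their start sites differed in 1 searched feature, and whether it bears on their levels was not tested. The motif CACGTG, which is its own reverse complement and the core of the element bound by TFEB and related lysosomal regulators, was searched in RefSeq windows from 250 bases before to 50 bases after each start (GRCm38.p6). Windows were found for 6 of the 8 genes. The 150 bases before the start are shown for the pair, with the motif in capitals, at chr8:13159011-13159160 (Lamp1) and chrX:38456461-38456610 (Lamp2, minus strand).
Lamp1: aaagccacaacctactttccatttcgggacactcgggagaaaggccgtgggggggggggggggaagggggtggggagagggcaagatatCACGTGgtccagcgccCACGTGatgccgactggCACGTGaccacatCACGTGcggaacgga
Lamp2: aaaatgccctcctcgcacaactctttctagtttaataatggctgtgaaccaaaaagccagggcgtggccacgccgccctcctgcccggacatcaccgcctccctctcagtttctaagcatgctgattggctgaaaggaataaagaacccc
Lamp1 held 4 copies and Lamp2 none. Of 32851 windows of this length, 7.15% held at least 1 copy, 0.594% at least 2 and 0.0244% (8 windows) at least 4. Ctsa, Rara and Snx10 have several windows each, while the background is counted per window. For Ctsa, the window of the start at 164833773 held 2 copies and that of the start at 164832872 held 0. The window of Stub1 held 1 copy. Rara had a single copy, counted in windows that overlap, and its other windows held 0. No window of Snx10 held the motif. A match describes these letters and no binding. Only this exact motif within these windows was searched, so a count of 0 says nothing of variants of the motif or of copies farther away.

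Hspa8, on the plus strand of chromosome 9 at 40800984 to 40810087, encodes the constitutive chaperone that recognises CMA substrates and also uncoats clathrin vesicles and folds new proteins. It was at 882, 1051.7, 691 and 799 CPM in WT and 1014.1, 1164.4, 1221.2 and 862 CPM in KO at room temperature. At 29 °C it was at 1508.7, 1942.7, 1730.1 and 2429.8 CPM in WT and at 896, 922 and 1389.8 CPM in KO. Here WT at 29 °C held the 4 highest libraries. KO was at 56.2% of WT at 29 °C (log2 fold change -0.83 ± 0.20, adjusted p = 0.00273). In WT, Hspa8 was 2.22-fold higher at 29 °C than at room temperature (log2 fold change 1.15, adjusted p = 3.2e-05), and in KO the difference was 0.01 (95% interval -0.40 to 0.41). The interaction was -1.15 (adjusted p = 0.00451). The highest KO library, replicate 3 at 29 °C, was also the one with most skeletal muscle transcripts. Without the 3 libraries with muscle transcripts, which leaves 1 KO library at 29 °C that is assumed to vary like the other groups, the log2 fold change of Hspa8 in KO against WT was -1.15 (adjusted p = 0.012).

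St13 encodes HIP, a co-chaperone that steadies the substrate-bound state of HSC70, and lies on the minus strand of chromosome 15 at 81363669 to 81400077. It was at 128, 139, 129 and 123 CPM in WT and 128, 131, 124 and 139 CPM in KO at room temperature, and at 29 °C at 47.5, 63.0, 71.3 and 82.5 CPM in WT and 150, 153 and 117 CPM in KO. The WT libraries at 29 °C were again the 4 lowest. KO was 2.12-fold higher than WT at 29 °C (log2 fold change 1.08 ± 0.14, adjusted p = 1.9e-05), and the interaction was 1.07 (adjusted p = 7.9e-04). The chaperone and this co-chaperone therefore changed in opposite directions in both the genotype comparison at 29 °C and the housing comparison in WT. For every count of St13 there were 24.3 to 31.8 counts of Hspa8 in WT at 29 °C, 5.35 to 7.59 in WT at room temperature, 6.22 to 9.85 in KO at room temperature and 5.96 to 11.9 in KO at 29 °C.

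Stub1 encodes CHIP, a ubiquitin ligase that binds HSC70 and sends its clients to degradation, and lies on the minus strand of chromosome 17 at 25830505 to 25833404. It was at 51.3, 43.2, 50.8 and 55.8 CPM in WT and 56.9, 50.8, 51.2 and 49.5 CPM in KO at room temperature, and at 29 °C at 75.4, 66.4, 74.5 and 72.9 CPM in WT and 48.9, 49.8 and 54.0 CPM in KO. WT at 29 °C held the 4 highest libraries. KO was at 70.4% of WT at 29 °C (log2 fold change -0.51 ± 0.09, adjusted p = 3.9e-04), and the interaction was -0.56 (adjusted p = 0.0039). This difference is under 1.5-fold, so it would not meet the fold limit that the submitters' notes state. Stub1 shares 1084 exon bases with Jmjd8 on the opposite strand, and no source used here states whether counting used strand, so that reads of the pair may be split wrongly. Jmjd8 fell with Stub1 in KO against WT at 29 °C (log2 fold change -0.47, adjusted p = 0.00528), but in WT at 29 °C against room temperature Jmjd8 was lower (-0.32, adjusted p = 0.0179) where Stub1 was higher (0.52, adjusted p = 4.6e-05).

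**Figure D2:**
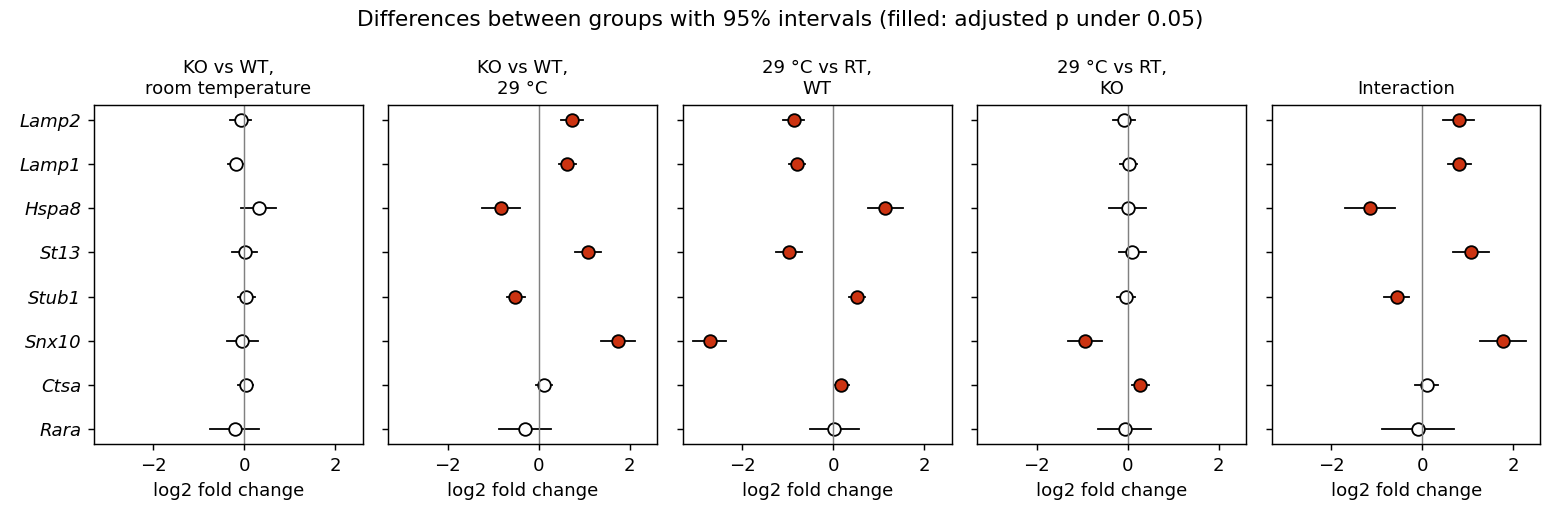
Log2 fold change of each CMA gene in the 4 pairwise comparisons and the interaction, with 95% intervals as lines and filled points where the adjusted p was under 0.05. No point is filled in the room temperature comparison, and in the KO housing comparison only Snx10 and Ctsa are filled.

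Snx10, on the plus strand of chromosome 6 at 51523901 to 51590679, encodes a sorting nexin of endosomes whose loss has been described to raise LAMP2A and CMA by slowing the maturation of cathepsin A. Its differences were the largest of the 8 in KO against WT at 29 °C, in both housing comparisons and in the interaction. It was at 225, 252, 232 and 229 CPM in WT and 259, 210, 227 and 216 CPM in KO at room temperature, and at 29 °C at 30.1, 33.6, 48.8 and 30.8 CPM in WT and 150, 123 and 86.8 CPM in KO. The groups at 29 °C did not overlap each other, and both lay below all room temperature libraries. In WT the level at 29 °C was 6.55-fold lower than at room temperature (log2 fold change -2.71, adjusted p = 2.5e-09), and in KO 1.90-fold lower (-0.93 ± 0.18, adjusted p = 5.4e-04). KO was 3.34-fold higher than WT at 29 °C (log2 fold change 1.74 ± 0.17, adjusted p = 2.2e-06), and the interaction was 1.78 (adjusted p = 8.3e-05). Snx10 was thus the 1 gene of the 6 for which the housing difference was called in both genotypes. The lowest of the 3 KO libraries was again replicate 3, and without the libraries with muscle transcripts the log2 fold change of KO against WT was 1.96 (adjusted p = 8.0e-05).

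Ctsa encodes cathepsin A, the lysosomal protease that cleaves LAMP2A and so starts its degradation, and lies on the plus strand of chromosome 2 at 164832873 to 164841032. It was at 49.7 to 58.1 CPM in WT and 50 to 56.2 CPM in KO at room temperature, and at 54.3 to 65.9 CPM in WT and 64.0 to 68.5 CPM in KO at 29 °C. The 2 genotypes overlapped at both temperatures, and KO against WT at 29 °C gave 0.12 (95% interval -0.05 to 0.30, adjusted p = 0.247). Its level at 29 °C was called higher than at room temperature in WT (log2 fold change 0.18, adjusted p = 0.0477) and in KO (0.28 ± 0.08, adjusted p = 0.0124). The WT call was kept in 7 of 27 alternatives and the KO call in 21 of 27, and the KO call was lost without the 3 libraries with muscle transcripts (0.16, adjusted p = 0.389), without KO replicates 2 and 4 at room temperature (0.25, adjusted p = 0.0796), without KO replicate 3 at room temperature (0.24, adjusted p = 0.0517) and without the filter on low counts (0.22, adjusted p = 0.0852). Ctsa shares 324 exon bases with Neurl2 and 495 with Pltp, both on the opposite strand.

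Rara encodes retinoic acid receptor alpha, a nuclear receptor whose signalling has been described to hold down CMA, and lies on the plus strand of chromosome 11 at 98927818 to 98974942. It was the least abundant of the 8, at 4.98 to 10.2 CPM in WT and 4.72 to 9.70 CPM in KO at room temperature, and at 6.34 to 10.9 CPM in WT and 5.85 to 6.99 CPM in KO at 29 °C. All groups overlapped, and no comparison was called. KO against WT at 29 °C gave -0.30 with a 95% interval of -0.88 to 0.28, so a change of the size seen for Lamp2 in the upward direction lies outside the interval and 1 of the size seen for Hspa8 in the downward direction lies within it.

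The order of the 4 group means was taken from the same fit, and neighbours in it were compared. For Lamp1 (adjusted p = 7.1e-06) and St13 (adjusted p = 7.2e-06), as for Lamp2, only the step down to WT at 29 °C was called. For Hspa8 (adjusted p = 0.00273, against KO at 29 °C) and Stub1 (adjusted p = 1.3e-04, against KO at room temperature), only the step from WT at 29 °C, the highest group, was called. Snx10 had a called step from KO at room temperature to KO at 29 °C (adjusted p = 5.4e-04) and another from there to WT at 29 °C (adjusted p = 2.2e-06). No neighbouring groups differed for Ctsa, whose smallest adjusted p between neighbours was 0.0849, or for Rara, with 0.811.

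Per kilobase of the longest coding transcript, the order of levels in WT at room temperature was Hspa8 at 358 CPM per kb, Lamp1 at 307, Snx10 at 94.6, Lamp2 at 47.1, St13 at 38.7, Stub1 at 27.9, Ctsa at 14.6 and Rara at 2.26. In WT at 29 °C Hspa8 stood at 795 CPM per kb and Snx10 at 14.4, which placed Snx10 below Lamp2 (25.7), St13 (19.7), Stub1 (40.1) and Ctsa (16.6). In KO at 29 °C Snx10 stood at 48.3 CPM per kb, above Lamp2 at 42.5. These length-scaled levels assume that the longest transcript was the one present.

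Summed brown adipocyte markers made up 0.318% to 0.449% of the counts of WT libraries at 29 °C and 1.11% to 1.36% of those of KO libraries at 29 °C, with 6 of 8 markers higher in KO and none lower. They took 1.08% to 1.24% in WT and 0.744% to 1.24% in KO at room temperature. Ucp1 is among these markers and weighs heavily in the sum. It was at 839 to 1276.6 CPM in WT and 6170.5 to 8596.2 CPM in KO at 29 °C, and the sum without it was not taken. Lymphocyte markers took 0.000553% to 0.000864% in WT and 0.00226% to 0.00306% in KO at 29 °C (8 of 9 higher in KO), and macrophage markers 0.0273% to 0.0387% and 0.0458% to 0.0672% (4 of 10 higher). Endothelial markers took 0.129% to 0.171% in WT and 0.0585% to 0.0834% in KO at 29 °C, with 8 of 8 lower in KO. At room temperature endothelial markers took 0.0443% to 0.0536% in WT and 0.0387% to 0.0529% in KO. No marker of these 4 types was at 0 in every library of a group. Of all genes tested, 24.7% were called higher and 20% lower in KO than in WT at 29 °C. The marker counts were not tested against these shares. The WT libraries at 29 °C thus stood apart for Lamp2, Lamp1, St13, Snx10, Hspa8 and Stub1. They also stood apart by a low sum of brown adipocyte markers, which includes Ucp1, and by a high sum of endothelial markers. The part of cell makeup in the CMA values was not tested.

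**Figure D3:**
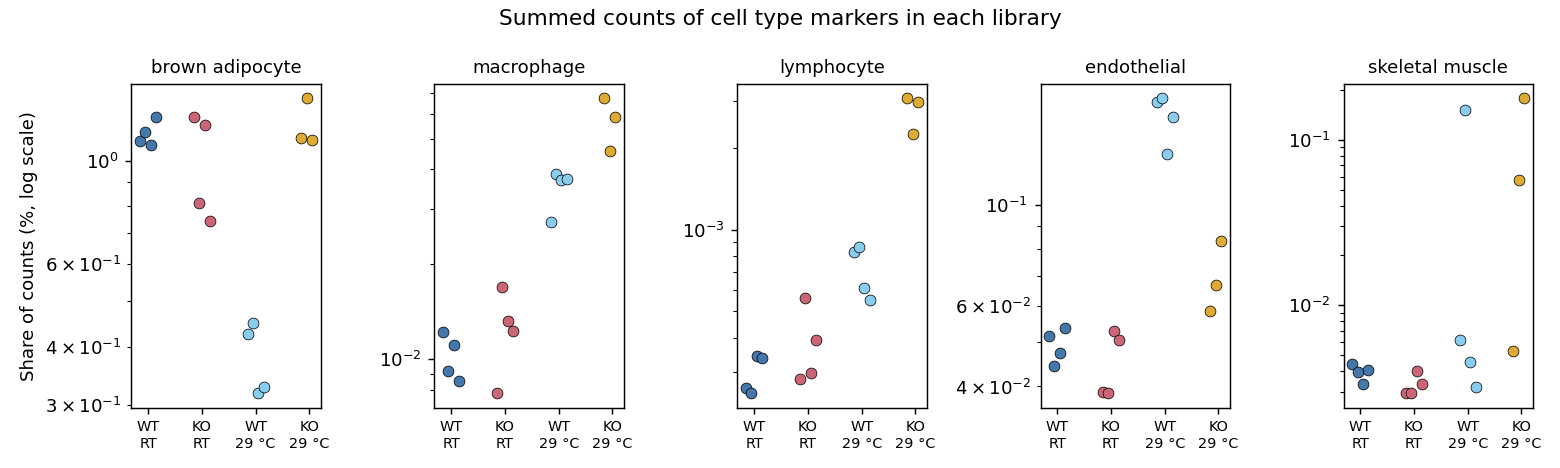
Share of each library's counts, in percent on a log scale that differs between panels, taken by the summed markers of 5 cell types, with 1 point per library. Brown adipocyte markers lie at 0.318% to 0.449% in WT at 29 °C and at 0.744% or more in the other groups. Endothelial markers lie at 0.129% to 0.171% in WT at 29 °C and at 0.0834% or less in the other groups. Skeletal muscle markers are raised in 3 libraries at 29 °C.

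The wider family of HSC70 and its partners was examined in a list of 24 genes, all tested, of which 12 were called in KO against WT at 29 °C, 3 higher and 9 lower, with a median log2 fold change of 0.11 against 0.04 for all genes. The 50% called compares with 44.7% of all genes tested. Dnaja1, a J-domain partner of HSC70, was at 271, 432, 423 and 741 CPM in WT and at 150, 129 and 266 CPM in KO at 29 °C (log2 fold change -1.36 ± 0.30, adjusted p = 0.00272). Hspa1a, the stress-inducible relative of Hspa8, was at 126, 421, 241 and 429 CPM in WT and at 8.82, 5.18 and 52.8 CPM in KO at 29 °C (-3.78 ± 0.83, adjusted p = 0.00332), and at 1.14 to 5.27 CPM at room temperature. Reads of Hspa1a and its near-identical copy Hspa1b cannot be fully separated, so these values are uncertain. Hspbp1, a nucleotide exchange factor (0.58 ± 0.11, adjusted p = 5.0e-04), and Dnajb4 (0.87 ± 0.17, adjusted p = 7.1e-04) were higher in KO. The interaction was called for 8 of the 24, 2 above 0 and 6 below (33.3%, against 28.3% of all genes). None of the 24 was called at room temperature, where only 0.239% of all genes tested were. In WT, 10 were higher and 11 lower at 29 °C (87.5% called, against 68.8%). The 9 genes called lower in KO at 29 °C, against 3 higher, also included Hsph1 (-2.11 ± 0.51, adjusted p = 0.00528) and Bag3 (-0.61 ± 0.21, adjusted p = 0.0279). Hspa1b was among these 9 too (-3.7 ± 0.87, adjusted p = 0.00488). Hsp90aa1, also inducible by heat, was not called in KO against WT at 29 °C (0.43 ± 0.28, adjusted p = 0.228), with a sign opposite to that of Hspa1a. Dnajb1 was not called either (-0.40 ± 0.19, adjusted p = 0.0928).

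**Figure D4:**
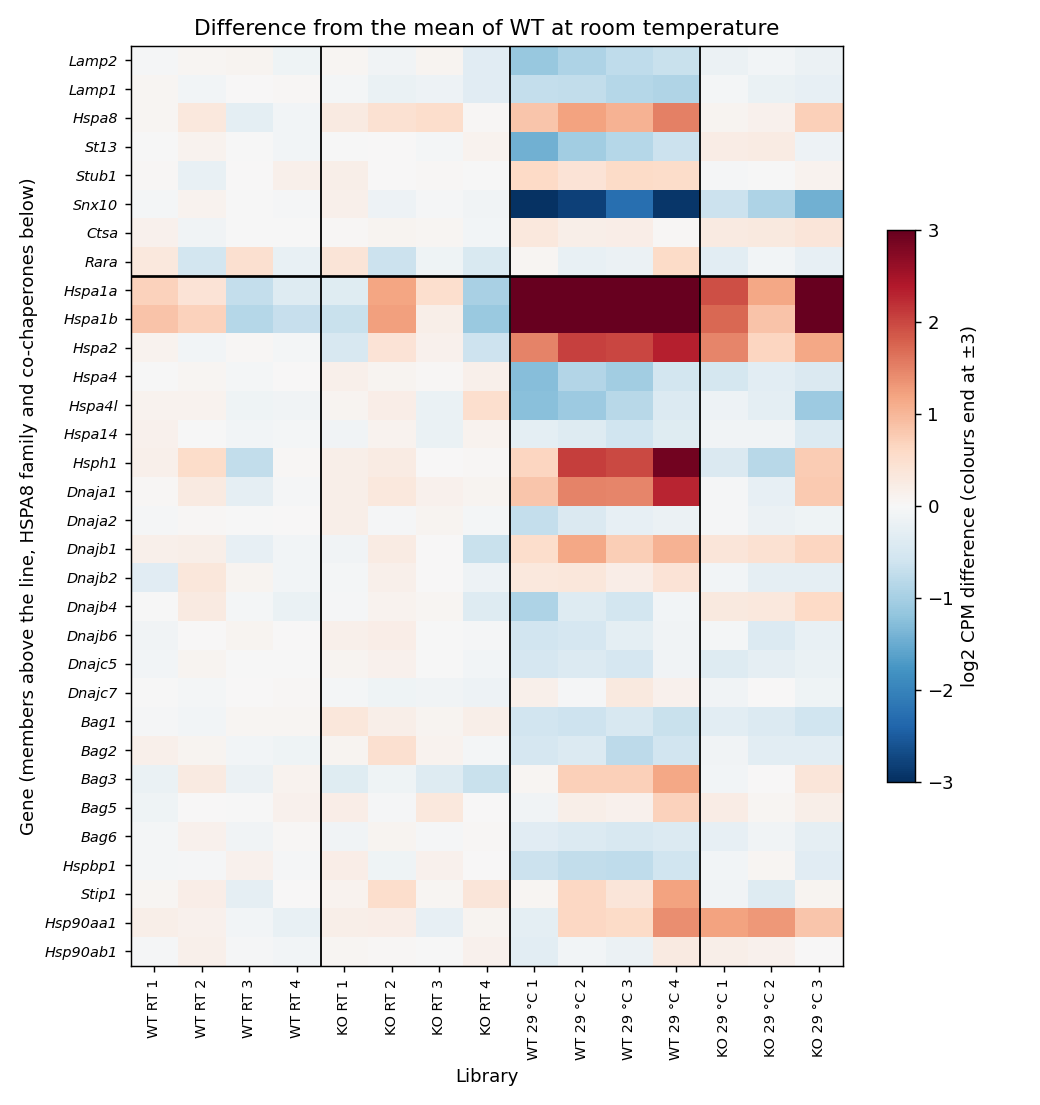
Log2 CPM difference of each gene in each library from the mean of WT at room temperature, for the 8 CMA genes (above the line) and 24 genes of the HSPA8 family and its co-chaperones (below), with colours ending at ±3. In WT at 29 °C, Hspa8 and Dnaja1 are red and St13 and Snx10 blue, and the KO columns at 29 °C are paler for these genes.

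Among 20 tested genes of CMA regulators and other machinery, 7 were called in KO against WT at 29 °C, 3 higher and 4 lower, which is 35% of them against 44.7% of all genes. Mapkap1, a subunit of the kinase complex mTORC2 that restrains CMA at the lysosome through AKT, was at 28.5, 26.7, 26.0 and 26.3 CPM in WT and 55.6, 55.9 and 43.7 CPM in KO (log2 fold change 0.94 ± 0.09, adjusted p = 1.8e-06). Akt2 (0.44 ± 0.10, adjusted p = 0.00175) and Rilp (0.54 ± 0.14, adjusted p = 0.00441) were also higher. Rictor, another subunit of mTORC2, was lower (-0.46 ± 0.13, adjusted p = 0.0097), as were Mlst8 (-0.33 ± 0.12, adjusted p = 0.03), Ncor1 (-0.35 ± 0.10, adjusted p = 0.0126) and Stip1, which encodes a co-chaperone between HSC70 and HSP90 (-0.74 ± 0.22, adjusted p = 0.0136). The subunits of mTORC2 in the list therefore changed in different directions. The interaction was called for 5 of the 20, 3 above 0 and 2 below (25%, against 28.3% of all genes).

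Of 16 other tested genes of the lysosomal membrane, 9 were higher and 1 lower in KO at 29 °C, with a median of 0.33 against 0.04 for all genes. Of all genes, 24.7% were higher and 20% lower there, and 44.7% were called, against 62.5% of these 16; the difference was not tested. Npc1, the cholesterol exporter of the lysosome, was at 25.6, 21.5, 16.3 and 18.4 CPM in WT and 67.0, 70.2 and 56.1 CPM in KO (1.65 ± 0.13, adjusted p = 2.9e-07). Scarb2 (0.88 ± 0.12, adjusted p = 3.5e-05) and Lmbrd1 (0.57 ± 0.10, adjusted p = 2.5e-04) were higher too, and so was Cd68 (1.37 ± 0.23, adjusted p = 1.9e-04), a gene that macrophages express at high level. Of 13 cathepsins and partners of cathepsin A, 6 were higher and 1 lower (53.8% called), with a median of 0.35. Ctsb was at 492 to 626 CPM in WT and 909 to 1217.3 CPM in KO (0.93 ± 0.11, adjusted p = 1.2e-05), Ctsd (1.02 ± 0.16, adjusted p = 7.8e-05) and Ctsz (1.0 ± 0.15, adjusted p = 7.3e-05) were also higher, and Neu1, the sialidase held in a complex with cathepsin A, was lower (-0.40 ± 0.10, adjusted p = 0.00361). Cathepsin A itself, as given above, was not called. The macrophage markers that were higher in KO at 29 °C stand beside these lysosomal values, and their part was not tested.

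Snx10 was compared with 28 other tested sorting nexins, of which 11 were higher and 2 lower in KO at 29 °C (46.4% called, against 44.7% of all genes), with a median of 0.16. Snx24 was at 3.54, 3.12, 3.87 and 2.74 CPM in WT and 11.7, 11.1 and 8.22 CPM in KO (1.64 ± 0.17, adjusted p = 2.5e-06), a difference close in size to that of Snx10. In KO it rose from 4.96 to 5.93 CPM at room temperature to these values at 29 °C by a log2 fold change of 0.92 (± 0.17, adjusted p = 3.4e-04), where Snx10 fell. Snx9 was higher (0.74 ± 0.09, adjusted p = 6.6e-06) and Snx11 lower (-0.68 ± 0.10, adjusted p = 3.9e-05). In WT, 4 sorting nexins were higher and 15 lower at 29 °C than at room temperature (67.9% called, against 68.8% of all genes).

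Of 18 tested genes for retinoid receptors, their cofactors and retinoid enzymes, 2 were higher and 5 lower in KO at 29 °C (38.9% called, against 44.7% of all genes), with a median of -0.09. Rarg, a relative of Rara, was at 22.2 to 32.3 CPM in WT and 15.1 to 21.4 CPM in KO (-0.67 ± 0.17, adjusted p = 0.00447). Aldh1a3, which makes retinoic acid, was at 2.71 to 5.05 CPM in WT and 0.639 to 0.901 CPM in KO (-2.31 ± 0.36, adjusted p = 1.1e-04). Of 12 genes whose protein products are described CMA substrates, 5 were higher and 3 lower (66.7% called), with a median of 0.03. Hk2 (1.49 ± 0.18, adjusted p = 1.0e-05) and Gapdh (1.01 ± 0.22, adjusted p = 0.00194), both of glycolysis, were higher, and Mapt, which encodes the microtubule protein tau, was lower (-1.0 ± 0.15, adjusted p = 8.7e-05). These are transcript values and say nothing of protein turnover. No gene of any of the 7 lists was called at room temperature, where only 0.239% of all genes tested were.

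The genes most like Lamp2 over the 15 libraries were sought among 9541 genes that averaged 5 CPM or more, by the root-mean-square difference of log2 CPM after each gene was centred on its own mean. The nearest were Ubl3 (0.100), Pabpc4 (0.113), Ap3s1 (0.114), Tvp23b (0.114) and Cpsf2 (0.117). Ubl3, a membrane-anchored ubiquitin-like protein, averaged 107 CPM in WT and 101 CPM in KO at room temperature, and 56.9 CPM in WT and 94.9 CPM in KO at 29 °C. Among the CMA genes Lamp1 (0.175) and St13 (0.195) were nearest to Lamp2. For Hspa8 the nearest were Dnaja4 (0.167), Cd3eap (0.196), Fgd6 (0.197), Myh9 (0.197) and Rapgef1 (0.199). Dnaja4, a J-domain partner of HSP70 chaperones, averaged 21.2, 25.7, 47.2 and 27.5 CPM in the same order. Of the CMA genes Stub1 was nearest to Hspa8 (0.352) and Snx10 farthest (1.613).

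KO at 29 °C was also set against WT at room temperature. Only Snx10 and Ctsa of the 8 were called there, against 43.6% of all genes: Snx10 was at 51.1% of the WT level (log2 fold change -0.97 ± 0.18, adjusted p = 4.0e-04), and Ctsa was 1.24-fold higher (0.31 ± 0.08, adjusted p = 0.0078), neither with overlap. Lamp2, Lamp1, Hspa8, St13, Stub1 and Rara were not called between those groups, which does not show that their levels were equal; the 95% interval for Lamp2 was -0.39 to 0.10 and that for Hspa8 -0.08 to 0.72.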

How the data were processed

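Bulk RNA of brown adipose tissue was measured in 15 libraries. Per the submitters' processing notes, STAR 2.7.10a aligned the reads to mm10, RSEM 1.2.28 quantified them, and DESeq2 1.3.40 tested the genes. The authors deposited RSEM expected counts, 1 value per symbol and library, and 7.26% of entries have decimals. They were rounded to whole counts. Decimals mean that reads were shared between genes, as for Stub1 and Ctsa in all 15 libraries. A spreadsheet had turned 24 symbols into dates, for which no value is given.

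Genes were filtered with filterByExpr (minimum count 10), scaled by TMM and fitted in 1 model of 4 groups with 11 residual degrees of freedom in R 4.3.3 with edgeR 4.0.16, by its robust quasi-likelihood test. P-values were adjusted over 15083 genes within each comparison, and genes were called at an adjusted p under 0.05. SE is the log2 fold change divided by the square root of F. Levels are counts per TMM-scaled library total (CPM). The precision is limited by 3 or 4 libraries a group. The fit was tested on simulated data.

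The 8 genes and 7 lists were chosen with earlier results of these data known. The rule names the 8 genes, Park7, Ucp1, up to 4 called genes of each list with the smallest p (KO against WT at 29 °C, and the interaction), and the 5 genes most like Lamp2 and Hspa8, some of which are not reported here. Ncor1, Neu1, Hsp90aa1, Dnajb1, Hsph1, Bag3 and Hspa1b were named after their values were seen, as were Jmjd8, Neurl2 and Pltp, for their overlap. Alternatives were RLE size factors, no mitochondrial genes, no filter, a filter of 1 CPM in 4 libraries, a replicate block, a fit to only the libraries compared, limma-voom (limma 3.58.1), DESeq2 1.42.0, a stricter adjusted p of 0.01, a 1.5-fold limit, and leaving out each library, the 3 with muscle transcripts, or KO replicates 2 and 4 at room temperature.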

Additional observations from a re-analysis of the deposited data

Results flagged for a closer look

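The housing response differed between KO and WT, by the interaction term of the edgeR fit, for 6 of the 8 CMA genes. It was called for 28.3% of all genes tested, so the call does not single these genes out. The differences were 0.80 for Lamp2, 0.82 for Lamp1, 1.07 for St13, 1.78 for Snx10, -1.15 for Hspa8 and -0.56 for Stub1 on the log2 scale. The adjusted p-values are given with each gene in the report.

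Single libraries lay far from the other 3 of their group for 9 of 162 groups of 4 checked among the named genes, and chance alone flags about 1 in 20. In KO at room temperature, replicate 2 was low for Mlst8 (15.1 CPM) and Npc1 (45.4 CPM) and high for Dnaja4 (31.0 CPM). In the same group, replicate 1 was high for Snx3 (149 CPM) and low for Mapt (34.5 CPM) and Myh9 (115 CPM). In WT at room temperature, replicate 3 was high for Hspbp1 (19.6 CPM) and replicate 2 stood apart for Ubl3 (111 CPM). In WT at 29 °C, replicate 3 was low for Snx11 (23.5 CPM). None of the 8 CMA genes had such a library in a group of 4, and KO at 29 °C, with 3 libraries, was not checked.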

How the results depend on the processing

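For called CMA genes, 561 values were taken under an alternative: 532 stayed called, 29 lost the call, and 0 changed sign. For those not called, none of 511 values became called and 35 changed sign. The adjusted p of 0.01 and the 1.5-fold limit reuse the main fit, so under them no sign could change and no gene could become called. Many fits that leave out a library also keep all libraries of the comparison, so these counts are partly fixed in advance. Lamp2, Lamp1, Hspa8, St13 and Snx10 were called in KO against WT at 29 °C, in the WT housing comparison and in the interaction under every alternative run; Stub1 was called in all of them except the 1.5-fold limit. The number of the 8 genes called in the KO housing comparison was 2, and it was 1 under an adjusted p under 0.01, the 1.5-fold limit, no filter, without the 3 libraries with muscle transcripts, and without KO replicates 2 and 4 at room temperature; leaving out each library in turn gave 1 to 2. In each of these cases the gene lost was Ctsa. The replicate block gave 0, 6, 7, 2 and 6 called genes in KO against WT at room temperature, at 29 °C, the housing comparison in WT and in KO, and the interaction, as without it. Same-numbered libraries correlated from -0.28 to 0.33, so the numbers were not taken to pair the libraries.

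Over all genes, KO against WT at room temperature gave 36 calls, 228 with DESeq2, 4 at an adjusted p under 0.01, and 5 to 60 with each library left out. Without the libraries with muscle transcripts it gave 13, KO against WT at 29 °C 4229 in place of 6749, and the KO housing comparison 4130 in place of 6940. Without KO replicates 2 and 4 the room temperature count was 5. The 1.5-fold limit gave 4184 calls in KO against WT at 29 °C and 4374 in the KO housing comparison, and an adjusted p under 0.01 gave 2304 of 4273 in the interaction. The causes were not tested. Depth was least for Rara, whose intervals were the widest of the 8.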
